A study of Homo sapiens with 6 samples.

Results

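This account covers the cyclin-dependent kinase (CDK) inhibitors CDKN1A, CDKN1B, CDKN1C, CDKN2A, CDKN2B, CDKN2C and CDKN2D and the growth arrest and DNA damage genes GADD45A, GADD45B and GADD45G in the MIA PaCa-2 line, which was established from a human pancreatic cancer. The genes were taken by symbol, 10 of the 35993 genes in the count table. RNA was sequenced from 3 untreated libraries and from 3 libraries of cells given 4 µM recombinant human cytoglobin (rhCYGB), an oxygen- and radical-binding globin, for 48 h. The protocol given for both groups is one text, in which cells were moved to medium with 1% serum on the day before treatment. The labels number the libraries 1 to 3 in each group and do not say that they came from separate cultures, so p-values measure the spread between these libraries, which may be technical.

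Progression from G1 into S phase is driven by CDKs bound to cyclins. The CIP/KIP inhibitors p21 (CDKN1A), p27 (CDKN1B) and p57 (CDKN1C) bind whole cyclin-CDK complexes, chiefly those of CDK2. The INK4 inhibitors p16 (CDKN2A), p15 (CDKN2B), p18 (CDKN2C) and p19 (CDKN2D) bind CDK4 and CDK6 and keep cyclin D off them. The GADD45 proteins are small stress-induced proteins that bind CDK1, PCNA and the kinase MAP3K4. The 9p21 locus that holds CDKN2A and CDKN2B is known to be deleted in many pancreatic cancers, and MIA PaCa-2 is known for homozygous loss of CDKN2A.

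Gene counts summed to between 34838399 and 42271299 per library. The edgeR filter on low counts kept 14728 genes for the test and 8 of the 10 genes described here; CDKN2A and CDKN2B had 0 counts in every library. CYGB itself had 0 counts in all 6 libraries. Of 6 epithelial markers, the keratins KRT8, KRT18 and KRT19 were abundant, while EPCAM had 0 counts and CDH1 a mean of 0.667 counts in untreated and 0 in rhCYGB libraries. The summed level of the 6 was 3844 to 4074 CPM (counts scaled to library size) in untreated and 2961 to 3167 CPM in rhCYGB libraries. The difference lay mainly in KRT8 (log2 fold change -0.81), with KRT19 (-0.61), while KRT18 (0.04) and KRT7 (0.49) did not pass. The sum of 7 mesenchymal and stellate markers, with FAP at 0, was 7928 to 8108 CPM in untreated and 11546 to 12061 CPM in rhCYGB libraries. That rise was VIM (log2 fold change 0.55) alone. COL3A1 fell from 3.99 ± 0.227 to 0.119 ± 0.108 CPM, COL1A1 had means of 7.33 and 0 counts, and ACTA2 (-0.08) did not pass. Of 6 acinar and endocrine markers, all but AMY2A had 0 counts. PTPRC, CD3E and PECAM1 were at 0 among 5 immune and endothelial markers, whose sum, almost all CD68, was 34.4 to 38.2 CPM in untreated and 70.4 to 72.5 CPM in rhCYGB libraries. The part of these marker shifts in the results was not tested.

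All 8 detected genes differed between the groups, 7 in the upward and 1 in the downward direction, and no untreated library overlapped a rhCYGB library for any of them. Groups that do not overlap were common in these data, at 79.5% of all genes tested (39.8% higher, 39.7% lower). With a call set at an edgeR Benjamini-Hochberg adjusted p under 0.05 and a change of 2-fold or more, 6 were called higher and 1 lower. Of all genes, 12.4% were called higher and 14.7% lower, 27.1% in all. The eighth, CDKN1B, passed the p threshold, as did 77.6% of all genes, with a change under 2-fold. Scaling by total counts in place of edgeR's TMM factors shifted the median log2 fold change of all genes by -0.17 and left 33.9% of the called genes higher, against 45.8% (35.5% in limma on log2(FPKM + 0.1)). The 8 genes kept their directions under every one of the 14 alternatives, and 5 of them were called higher under those scalings. In bulk RNA, fewer cells expressing a gene and less of its RNA per cell cannot be told apart.

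**Figure D1:**
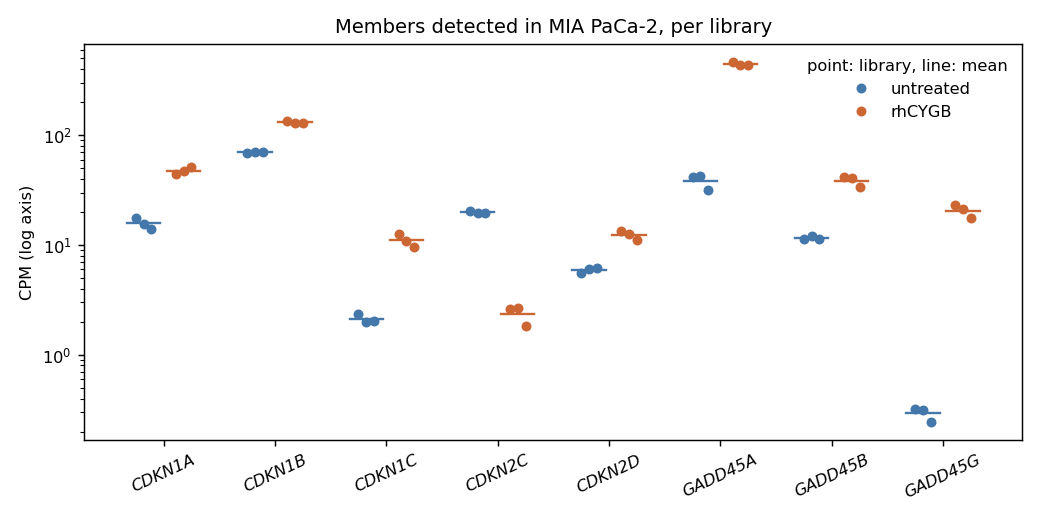
Level of each detected gene in every library, in CPM on a log axis, with 1 point per library and a line at the group mean. The untreated and rhCYGB points are apart for all 8 genes, with CDKN2C the one gene lower after rhCYGB, and GADD45A at a mean of 444 CPM after rhCYGB stands above the rest.

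Among the CIP/KIP genes, CDKN1A had 662, 691 and 571 counts in untreated libraries 1, 2 and 3 and 1659, 1573 and 1883 in rhCYGB libraries 1, 2 and 3. The mean level was 15.7 ± 1.90 CPM untreated and 47.7 ± 3.23 CPM after rhCYGB (SD, n = 3), with a log2 fold change of 1.60 (SE 0.078; edgeR adjusted p = 4.5e-11). CDKN1B had 2545, 3160 and 2868 counts in untreated and 5001, 4324 and 4753 in rhCYGB libraries. The gene went up from 69.7 ± 1.22 to 131 ± 3.03 CPM. Its log2 fold change was 0.91 (SE 0.039; edgeR adjusted p = 1.0e-11), and the 95% interval, 0.83 to 1.00, ended just under 2-fold. CDKN1C, an imprinted gene of 11p15.5, had 88, 89 and 83 counts in untreated and 470, 362 and 350 in rhCYGB libraries. Its rise was the steepest of the 3, from 2.13 ± 0.204 to 11.01 ± 1.58 CPM, with a log2 fold change of 2.37 (SE 0.14; edgeR adjusted p = 4.6e-10). Ratios between genes within each library need no scaling between libraries. They give the change of one gene against another and do not show whether either rose. The log2 ratio of CDKN1A to CDKN1B counts went from a mean of -2.15 to -1.46 and that of CDKN1C to CDKN1A from -2.88 to -2.12. For each of these ratios the groups did not overlap, and the exact permutation test (two-sided) gave p = 0.1, the smallest that 3 against 3 libraries allow.

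The INK4 genes went in opposite directions. CDKN2C had 755, 885 and 797 counts in untreated libraries and 97, 89 and 68 in rhCYGB libraries. That is a fall of 8.36-fold, between means of 19.9 ± 0.373 and 2.38 ± 0.462 CPM, with a log2 fold change of -3.06 (SE 0.12; edgeR adjusted p = 3.1e-12). CDKN2D had 207, 269 and 254 counts in untreated and 502, 417 and 412 in rhCYGB libraries. Its mean was 5.93 ± 0.342 CPM untreated and 12.4 ± 1.17 CPM after rhCYGB, and it rose with a log2 fold change of 1.06 (SE 0.10; edgeR adjusted p = 1.8e-07). The 95% interval of that change, 0.84 to 1.29, spans the 2-fold line, and its call was lost when libraries were scaled by total counts (log2 fold change 0.90) and in limma on log2(FPKM + 1) and log2(FPKM + 0.1) (0.75 and 0.87), while its adjusted p stayed under the threshold. Within libraries the log2 ratio of CDKN2C to CDKN2D counts was 1.87, 1.72 and 1.65 in untreated libraries and -2.37, -2.23 and -2.60 in rhCYGB libraries, so that its mean dropped by 4.14 (exact permutation test, two-sided, p = 0.1, the smallest possible). Per length, CDKN2C lay above CDKN2D in every untreated library, at 9.40 to 9.63 against 3.80 to 4.34 FPKM (the deposited values, scaled to transcript length and depth), and below it in every rhCYGB library, at 0.9749 to 1.73 against 7.01 to 8.68 FPKM.

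CDKN2A and CDKN2B, the remaining INK4 genes, had 0 counts in all 5 and both of their listed isoforms. A count of 0 allows up to 3 counts, or 0.0669 to 0.0902 CPM depending on the library; such limits cover counting error only. The long noncoding genes CDKN2A-DT and CDKN2B-AS1, which overlap them in the deposited table, were also at 0 counts in every library. The zero counts extended well beyond the locus. On chromosome 9 of the deposited table, 55 genes lie between ACER2, which ends at 19452503, and CAAP1, which starts at 26840683, a gap of 7.39 Mb; 53 of them had 0 counts in every library and the other 2 had a single count in all. MTAP, which encodes the methionine salvage enzyme next to CDKN2A, was among those at 0, with FOCAD, KLHL9, HACD4, MLLT3, DMRTA1 and ELAVL2. Outside the gap, ACER2 had 245 counts over the 6 libraries and CAAP1 3662. Of the neighbours, CAAP1 changed by -0.84 (log2; edgeR adjusted p = 1.1e-07), PLAA, a ubiquitin-binding protein, by 1.11 (edgeR adjusted p = 1.3e-11) and IFT74 by 0.02, which did not pass (edgeR adjusted p = 0.76). RNA counts do not tell missing DNA from silent genes, and which of these holds here was not tested.

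**Figure D2:**
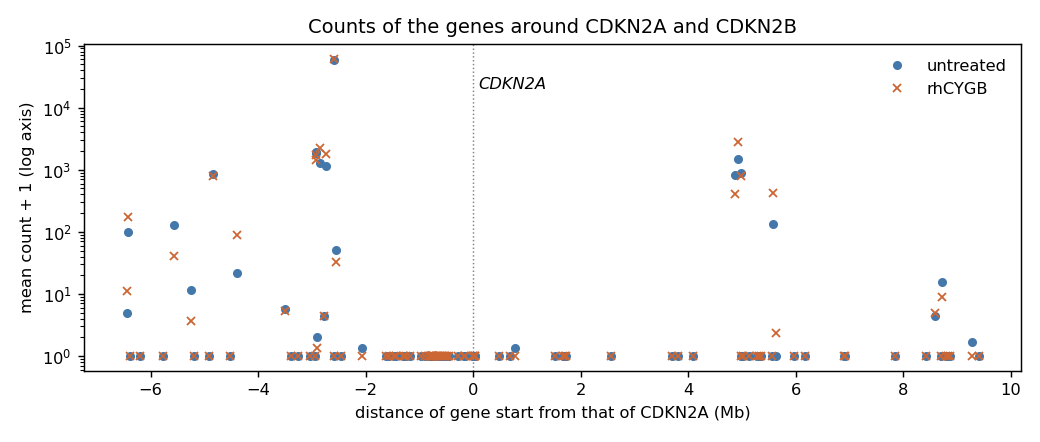
Mean count + 1 per library (log axis) of each gene on chromosome 9 against the distance of its start from the start of CDKN2A, in Mb, for untreated (circles) and rhCYGB (crosses) libraries. Points lie on or next to the zero-count line across the 7.39 Mb between ACER2 and CAAP1, in both groups, while some genes on either side reach far higher counts, as CAAP1 does with 3662 over the 6 libraries.

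The 3 GADD45 genes all rose. GADD45A had 1545, 1905 and 1300 counts in untreated libraries and 17242, 14537 and 15925 in rhCYGB libraries. The means were 38.6 ± 5.86 and 444 ± 17.3 CPM, a rise of 11.5-fold, with a log2 fold change of 3.52 (SE 0.079; edgeR adjusted p = 8.7e-15). GADD45B had 424, 544 and 465 counts in untreated and 1537, 1359 and 1237 in rhCYGB libraries. It rose 3.31-fold, from 11.6 ± 0.431 to 38.6 ± 4.37 CPM (log2 fold change 1.73, SE 0.081; edgeR adjusted p = 2.6e-11), the smallest rise of the family. GADD45G was close to silent in untreated cells, with 12, 14 and 10 counts, and had 858, 702 and 651 counts after rhCYGB. That is 0.293 ± 0.042 against 20.6 ± 2.75 CPM, a 69.6-fold rise (log2 fold change 6.12, SE 0.17; edgeR adjusted p = 7.1e-14). Because its untreated level was so low, its log2 fold change depended on the scale, at 5.53 in limma on log2(FPKM + 0.1) and 3.77 on log2(FPKM + 1). Within libraries the log2 ratio of GADD45G to GADD45A counts moved up by 2.60 and that of GADD45A to GADD45B by 1.81 (exact permutation tests, two-sided, p = 0.1 each, the smallest possible). The 95% intervals of the 3 log2 fold changes, 3.35 to 3.69 for GADD45A, 1.55 to 1.90 for GADD45B and 5.76 to 6.48 for GADD45G, did not overlap.

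Among 14728 genes ordered by log2 fold change from the most raised, GADD45G stood at place 21, GADD45A at 92, CDKN1C at 297, GADD45B at 668, CDKN1A at 784, CDKN2D at 1677 and CDKN1B at 2137. From the most lowered, CDKN2C stood at place 137. The median log2 fold change of all genes was 0.00.

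**Figure D3:**
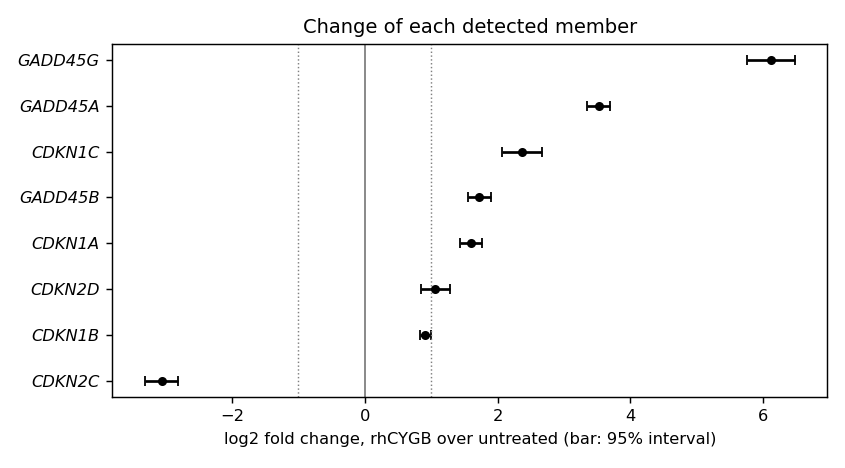
Log2 fold change of each detected gene, rhCYGB over untreated, from the edgeR fit, with 95% intervals as bars. Dotted lines mark a 2-fold change; the interval of CDKN2D crosses the line, that of CDKN1B ends at 1.00 and GADD45G lies farthest out at 6.12.

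Per length, in FPKM, the order of levels differed between the groups. In untreated cells GADD45A (26.6 FPKM) and CDKN1B (25.8) led with overlapping libraries, followed by CDKN2C (9.50), GADD45B (7.91) and CDKN1A (6.89), of which the last pair overlapped. CDKN2D (4.15), CDKN1C (1.09) and GADD45G (0.248) came after. In rhCYGB libraries GADD45A was alone at the top with 274 FPKM, ahead of CDKN1B (43.2), GADD45B (23.4), CDKN1A (18.6) and GADD45G (16.1), the last pair overlapping. CDKN2D (7.70) and CDKN1C (5.08) followed, and CDKN2C (1.43), which had been the third of the detected genes, was the last. CDKN2C supplied 20.1% ± 0.211 of the summed FPKM of the CDK inhibitors in untreated cells and 1.88% ± 0.515 after rhCYGB. The share of CDKN1A went from 14.5% ± 1.62 to 24.5% ± 2.30, whereas that of CDKN1B, the largest in both groups, was 54.3% ± 1.38 and 56.9% ± 0.196.

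Summed over the family, CIP/KIP transcripts were 34.02, 33.7 and 33.5 FPKM in untreated libraries and 67.9, 64.8 and 68.0 FPKM in rhCYGB libraries. Summed CDK1, CDK2, CDK4 and CDK6, the kinases they and the INK4 proteins bind, went the other way, from 139, 139 and 135 FPKM to 68.6, 64.4 and 66.7 FPKM. CIP/KIP FPKM over CDK FPKM was thus 0.245 ± 0.00286 in untreated and 1.01 ± 0.0152 in rhCYGB libraries. The INK4 sum was lower after rhCYGB, 13.7 ± 0.205 against 9.12 ± 1.22 FPKM, and so was the sum of their targets CDK4 and CDK6, at 84.1 ± 4.26 against 48.2 ± 1.16 FPKM. The ratio of those sums was 0.155, 0.160 and 0.173 in untreated and 0.210, 0.189 and 0.168 in rhCYGB libraries, and the groups overlapped. The GADD45 sum was 34.8 ± 3.99 FPKM in untreated and 313 ± 15.4 FPKM in rhCYGB libraries. These are transcript levels, and protein was not measured in these files.

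**Figure D4:**
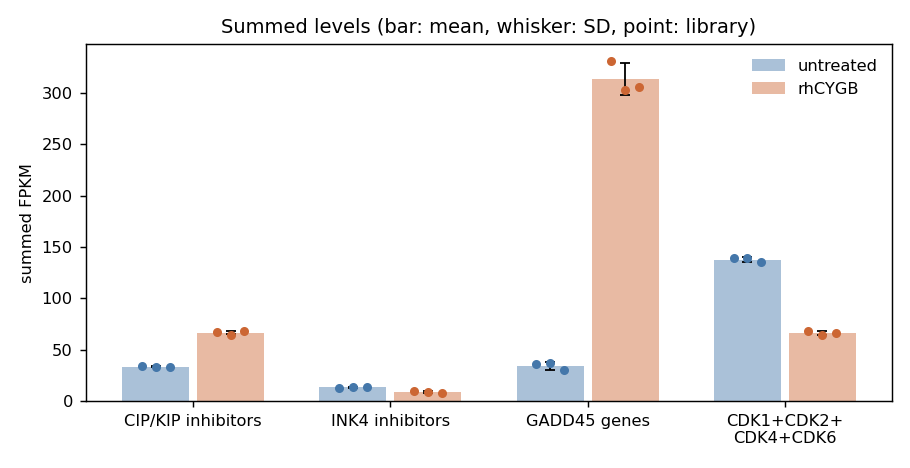
Summed FPKM of the CIP/KIP inhibitors, the INK4 inhibitors, the GADD45 genes and CDK1, CDK2, CDK4 and CDK6; bars are means, whiskers SD and points libraries, blue for untreated and orange for rhCYGB. After rhCYGB the CIP/KIP sum (66.9) and the CDK sum (66.6) stand level, from 33.7 and 138 in untreated cells.

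The transcript table lists 27 isoforms of the 10 genes; 16 passed the filter and 7, all of CDKN2A and CDKN2B, were at 0 in every library. By edgeR on transcript counts, 10 isoforms were called higher and 1 lower, where 8.62% and 8.32% of all isoforms were called (16.9% in all). Among those called higher, CDKN1C variants 1, 4 and 5 passed the filter only through their rhCYGB counts, so their direction was set by the filter. With at least 10 counts required in every library, 7 were called higher, and with a replicate block also 7. The split of reads between isoforms is the authors' assignment, and it varied more between libraries than gene counts did. Left without untreated library 1 the count of isoforms called higher was 5, and without rhCYGB library 1 it was 6.

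Variant 1 of CDKN2C (NM_001262) was the isoform called lower. It had 705, 820 and 746 counts in untreated libraries and 37, 45 and 48 in rhCYGB libraries (log2 fold change -4.00, SE 0.19; edgeR adjusted p = 7.0e-05). Variant 2 (NM_078626) had 50, 65 and 51 counts in untreated and 60, 44 and 20 in rhCYGB libraries. Its groups overlapped, and its log2 fold change of -0.30 had a 95% interval of -1.57 to 0.98 (edgeR adjusted p = 0.73). Variant 2 thus made up 6.79% ± 0.494 of the gene's counts in untreated libraries and 61.9%, 49.4% and 29.4% in rhCYGB libraries 1, 2 and 3. The test of whether the isoforms of a gene move apart (edgeR diffSpliceDGE), passed by 2.4% of all isoforms tested, did not call this shift (adjusted p = 0.40). When only isoforms with at least 10 counts in every library were tested, the same edgeR test called it (adjusted p = 0.00073). In counts simulated from these libraries under the main filter, the usage test called 1 of 66 isoforms lowered 3-fold. It called 17 of 67 lowered 8-fold and 43 of 64 lowered 32-fold. A usage shift that was not called may therefore still be present. The simulated isoforms were above a minimum level and held a middle share of their gene. Neither CDKN2C isoform was of that kind, so these rates were not measured for isoforms like them.

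The CDKN2C isoforms start from different first exons, 1550 bases apart in the deposited table and 1539 bases apart in RefSeq (GRCh38.p14), so their windows around the start, 250 bases before to 50 after it, are shown because the isoform of the first was called lower and that of the second did not pass. RefSeq windows were found for 8 of the 10 genes, with none for CDKN1C and GADD45A. Capitals mark matches, on either strand, to E2F-type sites (TTCCCGCC, TTTCCCGC, TTTGGCGC or TTTCGCGC), the E-box CACGTG, the CCAAT box and the TATA box TATAAA. The variant 1 window is chr1:50968456-50968755 and the variant 2 window chr1:50969995-50970294, both on the plus strand.
CDKN2C variant 1: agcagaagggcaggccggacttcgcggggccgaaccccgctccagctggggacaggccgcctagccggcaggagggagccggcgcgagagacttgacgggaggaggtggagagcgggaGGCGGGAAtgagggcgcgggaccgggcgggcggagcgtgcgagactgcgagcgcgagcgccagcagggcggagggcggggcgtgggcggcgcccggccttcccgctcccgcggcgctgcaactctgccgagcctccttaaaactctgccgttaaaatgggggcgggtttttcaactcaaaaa
CDKN2C variant 2: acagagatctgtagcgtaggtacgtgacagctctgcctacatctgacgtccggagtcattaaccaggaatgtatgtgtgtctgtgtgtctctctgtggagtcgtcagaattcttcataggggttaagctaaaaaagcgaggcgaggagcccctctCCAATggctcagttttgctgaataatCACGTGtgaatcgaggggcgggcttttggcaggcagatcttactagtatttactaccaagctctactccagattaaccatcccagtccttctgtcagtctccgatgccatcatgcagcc

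The variant 1 window is 71.3% G and C and holds 1 E2F-type match at position -132 from the start, on the minus strand; such a match is in 5.03% of all 35116 RefSeq windows. The variant 2 window is 49.3% G and C and holds no E2F-type match, a CCAAT box at -95 (34.6% of all windows) and an E-box at -69 (7.26%). The variant 1 window also has 6 GC boxes (GGGCGG, in 45% of windows, not capitalized), some of them overlapping. The variant 2 window has 1 GC box, at -54. These motifs were picked after the sequences had been seen, and a match is a description of letters, not of a bound site.

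Of the other genes, CDKN1A came mostly from variant 1 (NM_000389), which had 627, 653 and 566 counts in untreated and 1302, 1423 and 1793 in rhCYGB libraries (log2 fold change 1.40, SE 0.15; edgeR adjusted p = 0.0014). Its variant 4 (NM_001220778) had 35, 29 and 5 counts in untreated and 350, 150 and 85 in rhCYGB libraries. Its change just missed the threshold (edgeR adjusted p = 0.053). With 5 counts in untreated library 3, this isoform passed the filter only with the help of its rhCYGB counts. DINOL, the noncoding gene that overlaps CDKN1A, had 0 counts in every library. CDKN1C variant 1 (NM_000076) had 9, 8 and 12 counts in untreated and 104, 109 and 191 in rhCYGB libraries. Its log2 fold change was 3.88 (SE 0.46, edgeR adjusted p = 0.0022). The isoform passed the filter only through its rhCYGB counts, so its direction was set by the filter and the p adds no support. Variant 2 (NM_001122630), with 79, 72 and 71 counts in untreated and 282, 164 and 119 in rhCYGB libraries, rose less (1.44, SE 0.40; edgeR adjusted p = 0.044), and its share of the gene's counts was 85.4% ± 4.44 in untreated and 46.4% ± 13.0 in rhCYGB libraries. The edgeR usage test did not call that shift (adjusted p = 1.00 for variant 2 and 0.93 for variant 1). That test missed most simulated 3-fold and 8-fold changes, so the shares are not shown to have stayed the same.

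CDKN1C variants 4 (NM_001362474) and 5 (NM_001362475) were called higher on very few untreated counts. Variant 4 went from 2 to 82 counts over the 3 libraries, a ratio of 41.8 with a 95% counting interval of 11.2 to 351, and variant 5 from 1 to 66 counts, a ratio of 67.4 (11.7 to 2700). All of these untreated counts came from untreated library 2, and the other untreated libraries had 0 counts of either isoform. Variant 3 (NM_001122631), with 0, 6 and 0 counts in untreated and 27, 26 and 12 in rhCYGB libraries, did not pass (edgeR adjusted p = 0.13). CDKN2D variant 1 (NM_001800) rose from 158, 141 and 201 to 303, 347 and 317 counts (log2 fold change 1.06; edgeR adjusted p = 0.025), while variant 2 (NM_079421), at 49, 128 and 53 against 199, 70 and 95, overlapped between groups and did not pass (edgeR adjusted p = 0.36). GADD45A variant 1 (NM_001924) held 97.6% ± 1.68 of the gene's counts in untreated and 98.9% ± 0.41 in rhCYGB libraries and rose with it (log2 fold change 3.46; edgeR adjusted p = 4.4e-05), and variant 2 (NM_001199741) rose from 24, 24 and 56 to 254, 95 and 156 counts (2.36; edgeR adjusted p = 0.028). CDKN1B, GADD45B and GADD45G have 1 isoform each in the table.

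**Figure D5:**
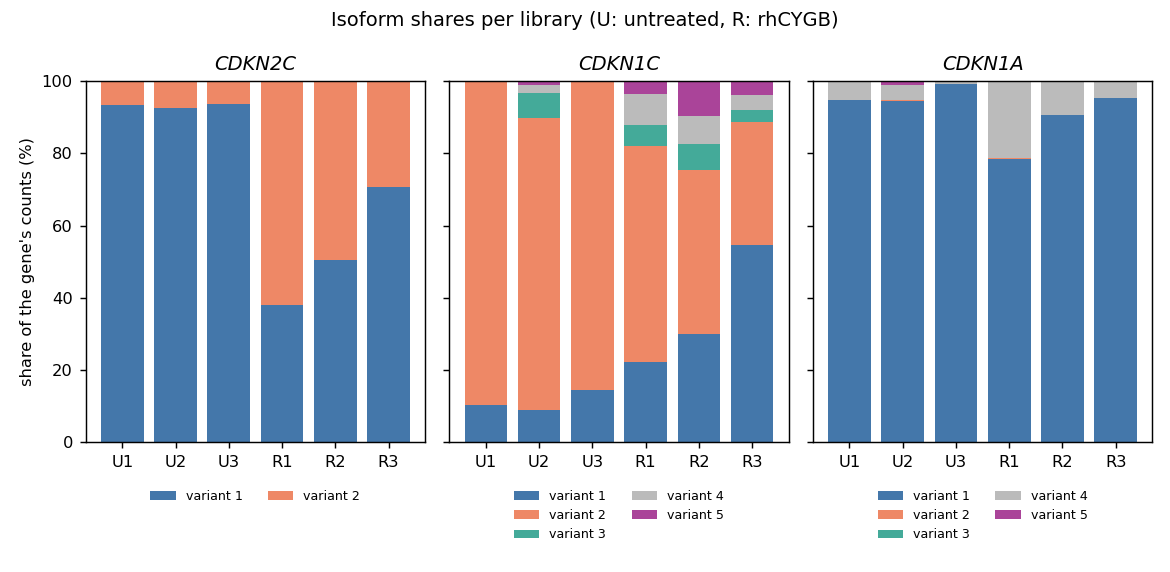
Share of a gene's counts assigned to each isoform in every library, in percent, for CDKN2C, CDKN1C and CDKN1A (U1 to U3 untreated, R1 to R3 rhCYGB). CDKN2C variant 2 grows from a mean of 6.79% to 46.9% with wide spread among the rhCYGB libraries, and CDKN1A variant 1 stays at 78.5% or more in all libraries.

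The start windows of GADD45G and GADD45B, which were below GADD45A in FPKM in both groups, are printed with the same capitals, since both genes rose and by very different factors. GADD45A rose too, but no RefSeq window was found for it. The printed windows are chr9:89604762-89605061 and chr19:2475877-2476176 (GRCh38.p14, plus strand).
GADD45G: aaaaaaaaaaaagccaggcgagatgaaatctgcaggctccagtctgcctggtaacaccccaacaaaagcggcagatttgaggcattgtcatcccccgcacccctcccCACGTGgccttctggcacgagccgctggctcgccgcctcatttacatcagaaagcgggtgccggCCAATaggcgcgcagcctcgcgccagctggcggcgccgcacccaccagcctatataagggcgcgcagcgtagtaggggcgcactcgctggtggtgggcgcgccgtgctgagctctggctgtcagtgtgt
GADD45B: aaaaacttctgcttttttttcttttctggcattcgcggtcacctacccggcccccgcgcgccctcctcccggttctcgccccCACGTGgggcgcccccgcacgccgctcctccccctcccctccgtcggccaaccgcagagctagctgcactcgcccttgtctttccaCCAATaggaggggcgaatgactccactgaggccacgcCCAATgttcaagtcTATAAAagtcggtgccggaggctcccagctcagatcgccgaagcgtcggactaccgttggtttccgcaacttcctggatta

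Both windows hold the E-box CACGTG, at -143 in GADD45G and -168 in GADD45B, a motif present in 7.26% of all windows, and both hold a CCAAT box. GADD45B has a TATA box at -31, found in 11.5% of windows, and GADD45G has none of the exact letters TATAAA. The sites TGACGTCA (1.85% of windows) and TGATGNAAT (0.991%) were searched for as well, and none of the windows found held either. CDKN1C and GADD45A had no window to search.

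The INK4 partners, CDK4 and CDK6 with the cyclins D and the RB family, were 8 genes. Of these 1 was called higher and 2 lower, near the 12.4% and 14.7% of all genes, with a median log2 fold change of -0.67 against 0.00 over all genes. Cyclin D1 (CCND1) fell from 164 ± 0.863 to 60.5 ± 1.40 CPM (log2 fold change -1.44; edgeR adjusted p = 5.0e-14) and CCND3 by 1.47 on the log2 scale, while CCND2 rose from 1.19 ± 0.287 to 10.6 ± 0.319 CPM (3.16; edgeR adjusted p = 5.9e-11). By FPKM, CCND1 remained the most abundant cyclin D after rhCYGB, at 11.9 against 3.46 for CCND3 and 1.36 for CCND2. CDK4 changed by -0.66 and CDK6 by 0.87 on the log2 scale, both past the p threshold and under 2-fold.

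All 8 tested CIP/KIP partners passed the p threshold in the downward direction, as did 38.6% of all genes, and 6 of them were called lower, beside 14.7% of all genes. The median was -1.44. CCNE2, cyclin E2, fell most, from 7.15 ± 0.857 to 0.926 ± 0.176 CPM (log2 fold change -2.94; edgeR adjusted p = 6.1e-10). PCNA, the replication clamp that p21 and the GADD45 proteins bind, fell from 169 ± 7.27 to 31.7 ± 3.22 CPM (-2.41; edgeR adjusted p = 3.1e-14), and CCNA2 by 1.65 on the log2 scale. CDK1 fell by 1.32 and CDK2 by 1.53 on the log2 scale (edgeR adjusted p = 1.5e-12 and 3.0e-11).

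Of 18 genes for degradation of the CIP/KIP proteins, 4 were called lower, near the 14.7% of all genes, and none higher, beside 12.4%. The median was -0.34. With the p threshold alone 12 were lower and 5 higher, beside 38.6% and 39% of all genes. SKP2, the F-box protein that marks p27 for destruction, fell from 45.5 ± 2.41 to 11.6 ± 0.562 CPM (log2 fold change -1.98; edgeR adjusted p = 4.4e-13). The others were PCNA (also in the list before), the RING subunit RBX1 (-1.31) and DTL (-1.08), the last named after its value was seen. CKS1B, the cofactor of SKP2, changed by -0.14.

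GADD45 partners numbered 17, of which 1 was called higher and 4 lower, near the 12.4% and 14.7% of all genes, with a median of -0.35. MAP3K4, the kinase the GADD45 proteins activate, did not pass (0.11; edgeR adjusted p = 0.062). The genes called lower were MAP2K6 (-2.16), MAPK13 (-1.45), AURKA (-1.72) and TET1 (-1.03). MAP2K6 and MAPK13 had means under 35 counts, and the groups overlapped for MAPK13. Both passed the filter only through their untreated counts, so their direction was set by the filter. With at least 10 counts required in every library, 2 genes were called lower. MAPK8 (1.01), which encodes the JNK1 kinase, was the gene called higher. TET1 and MAPK8 were named after their values were seen. The call of MAPK8, at the 2-fold line, was lost in 8 of the alternative settings.

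Of 40 transcription regulators known for at least 1 of these genes, 13 were called higher and 5 lower, beside 12.4% and 14.7% of all genes, with a median of 0.49. With the p threshold alone 29 were higher, beside 39% of all genes, and 10 lower. ATF3, a stress-induced bZIP factor, rose from 5.61 ± 0.933 to 266 ± 8.22 CPM (log2 fold change 5.57; edgeR adjusted p = 6.6e-17), DDIT3 (CHOP) by 4.09 and CEBPB by 3.00 on the log2 scale. The 5 called lower, all named after their values were seen, were BRCA1 (-2.04), ID3 (-1.80), E2F1 (-1.47), SMAD3 (-1.30) and FOXO4 (-1.25). Near CDKN1C on 11p15.5, 10 neighbours were tested, 1 of them, TSSC4 (1.12), was called higher and none lower, beside 12.4% and 14.7% of all genes. With the p threshold alone 5 were higher and 3 lower, beside 39% and 38.6% of all genes. The KCNQ1OT1 transcript of that imprinted cluster changed by -0.75 (edgeR adjusted p = 0.00025), past the p threshold and under 2-fold.

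For each called gene the genes most alike in pattern were sought among 11887 genes with a mean of at least 100 counts in the higher group, by the Euclidean distance of log2 CPM centered on the untreated mean over the 6 libraries. GADD45A lay nearest to SLC3A2 (distance 0.182) and DDIT4 (0.1999), and GADD45B to ING3 (0.166) and MXD1 (0.184). GADD45G, with 12, 14 and 10 untreated counts, lay nearest to CHST1 (0.566) and GDF15 (0.599), farther off than the nearest genes of the others. By its construction this distance mainly matches genes by the size of their change. CHST1 and GDF15 had log2 fold changes of 6.11 and 5.58, against 6.12 for GADD45G. Shared regulation was not tested. CDKN1A lay nearest to EML2 (0.107) and MBD6 (0.109), CDKN1C to SNORD68 (0.242) and CTU1 (0.248), CDKN2D to USE1 (0.0899) and CEP83 (0.105), and CDKN2C to PDK3 (0.293) and SCARA3 (0.346).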

How the data were processed

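RNA from MIA PaCa-2 cells was sequenced as 3 untreated and 3 rhCYGB libraries made with a stranded mRNA kit. Per the labels, the authors used FastQC 0.11.7, HISAT2 2.1.0 and StringTie 2.1.3b; the labels name the build mm10, a mouse genome, and no human build is given in the sources used here, so positions are those of the deposited table unless GRCh38.p14 is named. The read counts deposited by the authors are whole numbers per gene and per transcript, not normalized. The authors' FPKM values are relative to transcript length and depth, and the TPM columns they deposited were not used here. How strand was treated in counting is not given in the sources used here.

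Counts were tested with edgeR 4.0.16 in R 4.3.3 (filterByExpr, TMM, glmQLFit and glmQLFTest, all 6 libraries, no block), with Benjamini-Hochberg adjustment over all 14728 genes or 32577 transcripts tested; a call needed an adjusted p under 0.05 and 2-fold or more. Isoform usage was tested with diffSpliceDGE over 24967 isoforms. Library sizes times TMM factors gave CPM, with a prior count of 2 for the log2 CPM of pattern distances. FPKM sums have no test. The scripts were tested on simulated data. The alternatives were DESeq2 size factors, total counts, the DESeq2 1.42.0 Wald test, limma 3.58.1 on log2 FPKM with 1 or 0.1 added, no filter, at least 10 counts in every library, sums of CPM in place of FPKM, a replicate block, and fits that left out single libraries. No library was a copy of another, since chi-square over degrees of freedom was 4.67 to 6.61 within groups. The labels name no batch.

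The genes and the lists were chosen with earlier results of these data known. Named were all 10 genes and isoforms with a mean of at least 10 counts in a group, overlapping genes, the 3 called genes with the largest change in each list, the CDKs, D cyclins, SKP2 and MTAP, and the 2 genes most alike in pattern to each called gene; others are marked as named after their values were seen, or given with their values as markers, neighbours or members not passing. Promoter windows are RefSeq's. Results for 1 list and for some named genes are not reported here.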

Additional observations from a re-analysis of the deposited data

How the results depend on the processing

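The 8 detected genes kept their direction and an adjusted p under 0.05 in all alternatives, with log2 fold changes of 1.31 to 1.69 for CDKN1A, 0.73 to 0.93 for CDKN1B, 1.54 to 2.47 for CDKN1C, -3.23 to -2.13 for CDKN2C, 0.75 to 1.14 for CDKN2D, 3.32 to 3.604 for GADD45A, 1.45 to 1.82 for GADD45B and 3.77 to 6.22 for GADD45G. Of all genes, 3998 were called, and 1977 (805 higher, 1172 lower) in limma on log2(FPKM + 1). Among GADD45 partners the count called higher went from 1 to 0 with DESeq2 size factors, total counts, the DESeq2 Wald test, both limma fits and at least 10 counts in every library, and was 0 to 1 when single libraries were left out (0 without untreated 3 or rhCYGB 3); the count called lower was 1 in both limma fits, 2 with at least 10 counts and 2 to 4 when single libraries were left out (2 without untreated 2). Isoforms called higher numbered 5 to 8 when single libraries were left out (5 without untreated 1, 6 without rhCYGB 1), and usage calls went from 0 to 1, CDKN2C variant 2, with at least 10 counts in every library. The usage difference of CDKN2D, not called in any setting, ranged over -0.090 to 0.21 for variant 1 and -0.64 to 0.28 for variant 2 when single libraries were left out. With CPM in place of FPKM, the log2 ratio of sums was 1.12 for CIP/KIP, -0.80 for INK4 and 0.85 for all CDK inhibitors. It was -0.81 for CDK1, CDK2, CDK4 and CDK6 and -0.52 for CDK4 and CDK6. CPM does not divide by length, and it uses TMM factors, which the deposited FPKM values do not. How much each of these contributed was not tested. Libraries shared only a replicate number (correlations of same-numbered deviations -0.048, 0.0072 and 0.0055; numbers 1 and 3 did not correlate best with their own); with the replicate block, 3978 genes were called and no call of the 8 genes changed. Except where the construction shows it, the cause was not tested. For CDKN2A and CDKN2B, depth sets only the upper limit given for their level, and why they had no counts was not tested. Depth also limits the CDKN1C isoforms with under 10 counts.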
